A study of Rattus norvegicus with 12 samples.

Results

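The interaction of estradiol and 3-methylcholanthrene was measured as the change in the uterine estradiol response when 3-methylcholanthrene was given as well. Uteri came from ovariectomized young adult female Lewis rats, whose main source of estrogen had been removed. Rats received DMSO as vehicle, 4 µg/kg of 17β-estradiol (E2) daily, 15 mg/kg of 3-methylcholanthrene (3-MC) daily, or E2 and 3-MC together, on 3 days in a row, and the tissue was taken 24 h after the last dose. There were 3 rats in each of the 4 groups and 1 Affymetrix array for each rat. All 12 arrays enter the contrast, and because whole uterus was used, fewer cells of a type and less RNA per cell cannot be told apart. All 15310 probe sets with 1 gene symbol were taken from the 29214 in the table. They stand for 14506 genes, and the 10154 brighter ones were tested.

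The interaction takes the difference between E2+3-MC and E2 and subtracts from it the difference between 3-MC and vehicle, on group means of log2(intensity + 16). It equals the E2 response in rats given 3-MC minus the E2 response in rats not given it. A value of 0 means that the effects of the compounds add on the log2 scale. For a gene that E2 raises, a negative value means a smaller rise with 3-MC. For a gene that E2 lowers, a positive value means a smaller fall with 3-MC. Values are given as deposited and again after quantile normalization, which forces the 12 arrays to 1 distribution.

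Estradiol acts in the uterus through the estrogen receptors, ligand-bound transcription factors that drive water uptake, secretion by the luminal epithelium and cell division. 3-MC, a polycyclic aromatic hydrocarbon, is a ligand of the aryl hydrocarbon receptor (AhR), which pairs with ARNT and switches on genes of xenobiotic metabolism such as Cyp1a1. Ligands of the AhR are known for antiestrogenic effects in the uterus and other estrogen target tissues, and the interaction asks whether the response to E2 differed when the AhR ligand was present.

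The arrays did not share a common level. Array medians of log2(intensity + 16) ran from 6.68 to 7.12, and the interquartile range was 2.70 in vehicle rat 1 against 1.87 to 2.35 in the other rats. The array median itself had an interaction of 0.17 (exact permutation test of the 3-MC labels within the rats without and with E2, two-sided p = 0.315; 400 assignments, smallest possible p 0.005). The deposited values carry such a shift: the median interaction over the 10154 genes was 0.19 as deposited and -0.00 after quantile normalization. The deposited value of a typical gene is therefore to be read against 0.19. The arrays differ in spread as well as level, and the shift was not the same for every gene. Between the scales Nqo1 moved down from 0.09 to -0.07, and Mmp7, which E2 raises strongly, moved up from -1.45 to -1.30. Likewise 79.9% of all genes tested had a value above 0 as deposited and 49.9% after quantile normalization, against which counts above 0 in a list are to be read.

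No gene passed the test for interaction. With limma and Benjamini-Hochberg adjustment at 0.05, 0 of 10154 genes (0%) were called as deposited and 0 (0%) after quantile normalization. The smallest limma adjusted p was 0.977 as deposited and 0.357 after quantile normalization. At an unadjusted p under 0.05 there were 298 genes as deposited (2.93%), 265 with a higher (2.61%) and 33 with a lower value (0.325%), and 566 after quantile normalization (5.57%), 304 higher (2.99%) and 262 lower (2.58%). Of these, 250 genes passed on both scales, all with the same sign. The median standard error of an interaction was 0.31 as deposited and 0.19 after quantile normalization, against 0.22 and 0.13 for a difference of 2 groups.

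The count of 0 also held on linear intensities (200 genes at an unadjusted p under 0.05) and over all 20450 bright probe sets, named or not (686). After quantile normalization it held in 11 of the 12 fits that left out 1 rat; without E2+3-MC rat 3, limma called Htr4 (-1.94, adjusted p = 0.0191) and Sctr (-1.71, adjusted p = 0.0104). Weighting of the arrays by their quality was tried in 4 fits, and the count of 0 held only with gene-by-gene weights after quantile normalization. As deposited, limma's default array weights did not converge and gave 256 calls, and the gene-by-gene method, chosen after that was seen, gave 1119. After quantile normalization the gene-by-gene weights gave 0 calls and the default weights 3, which were Dnajc14, Ctnnd2 and Ccl7. The gene-by-gene weights as deposited ran from 0.0662 for vehicle rat 1 to 5.52 for E2+3-MC rat 1, which left the weight of 1.42 arrays in the vehicle group, 1.56 in E2, 2.37 in 3-MC and 1.47 in E2+3-MC. No gene is described as called on the basis of such weights.

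The E2 responses with and without 3-MC were correlated across genes, and the slope of the first on the second was below 1. The response with 3-MC (E2+3-MC minus 3-MC) and the response without it (E2 minus vehicle) share no array. Across the 10154 genes, which are not independent replicates, they had a Pearson correlation of 0.915 and a Spearman correlation of 0.846 as deposited, and 0.918 and 0.842 after quantile normalization. The major-axis slope of the response with 3-MC on the response without it was 0.75 as deposited and 0.80 after quantile normalization, where 1 would mean equal responses.

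**Figure D1:**
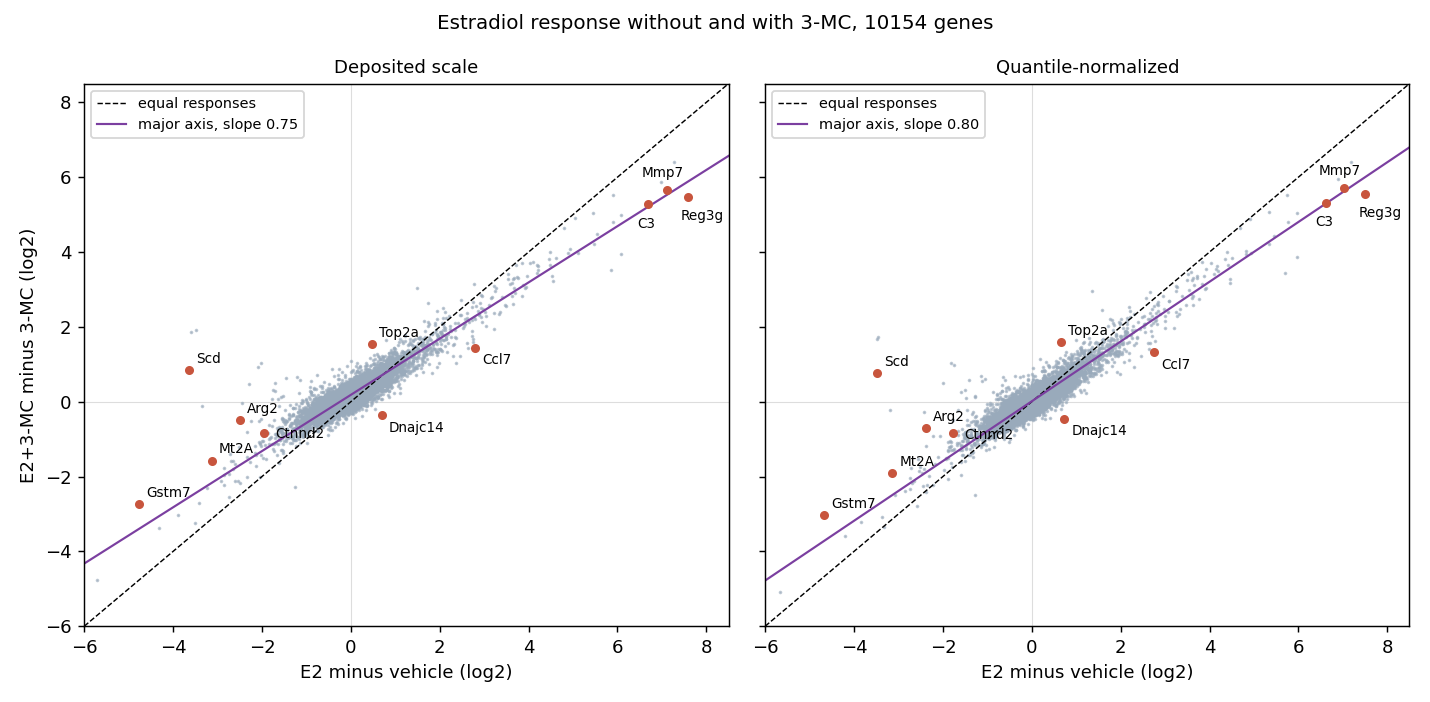
Difference in log2(intensity + 16) between E2+3-MC and 3-MC (vertical axis) against that between E2 and vehicle (horizontal axis), 1 point per gene, 10154 genes, as deposited and after quantile normalization, with the line of equal responses dashed and the major axis solid. The major axis is flatter than the line of equal responses on both scales, with slopes of 0.75 and 0.80, and labelled genes such as Arg2, Scd and Dnajc14 lie off it.

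The slope differed between the rats that received both compounds. Set against the E2 minus vehicle response, the response of E2+3-MC rat 1 had a slope of 0.769, that of rat 2 a slope of 0.604 and that of rat 3 a slope of 0.955 as deposited. After quantile normalization these were 0.834, 0.686 and 0.954. Rat 2 was lowest and rat 3 close to 1 on both scales. In the other direction the 3 E2 rats were nearly alike, with slopes of 1.36, 1.35 and 1.37 as deposited on the response with 3-MC. Leaving out E2+3-MC rat 2 moved the overall slope from 0.75 to 0.845, and leaving out rat 3 moved it to 0.673.

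Epithelial markers moved with this order. The summed deposited intensity of 29 markers of luminal and glandular epithelium was 25982, 19475 and 32816 in E2+3-MC rats 1 to 3, against 36432, 29635 and 31189 in the E2 rats, 12274, 9549 and 11383 in the 3-MC rats and 19877, 10184 and 10563 in the vehicle rats. E2+3-MC rat 2 had the lowest and rat 3 the highest sum of their group, and as deposited rat 3 alone lay within the range of the E2 rats. After quantile normalization rat 2 remained lowest at 20378, while rat 3 at 27445 lay below every E2 rat (30212 to 31344). All 29 markers were also among the genes that set the slopes. Their median E2 minus vehicle difference was 0.82 after quantile normalization, so the sum itself follows the E2 response. A rat with a smaller response to E2 would have a lower sum for that reason alone. The shared order is therefore not a separate measure of the amount of epithelium. The part of this marker signal in the slopes was not tested.

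**Figure D2:**
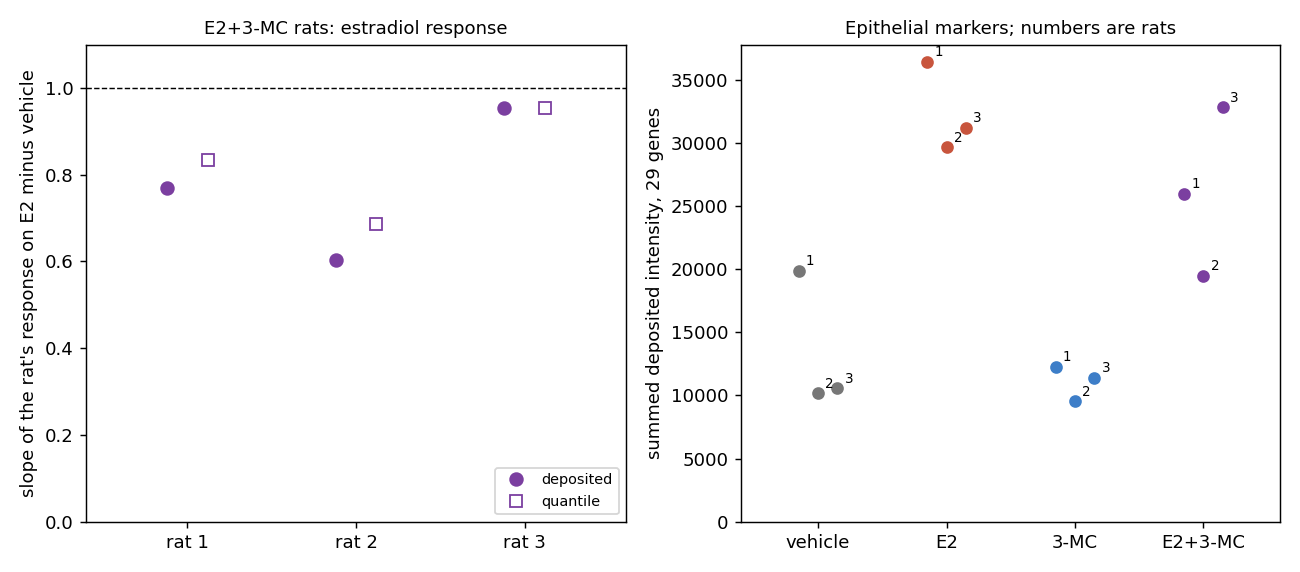
Left, major-axis slope of each E2+3-MC rat's response on the E2 minus vehicle response across 10154 genes, as deposited (filled) and after quantile normalization (open), with equal responses dashed at 1. Right, summed deposited intensity of 29 epithelial markers in each of the 12 rats; E2+3-MC rat 2 is lowest of its group in both panels, with a slope of 0.604 and a sum of 19475.

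Genes called in both responses showed the same tilt. After quantile normalization 3904 genes were called for E2 without 3-MC (38.4%) and 2653 with 3-MC (26.1%), and 2315 were called in both with the same direction, which is 59.3% of the first set and 87.3% of the second. Of the 1249 genes that rose in both, 935 (74.9%) rose by less with 3-MC, and of the 1066 that fell in both, 784 (73.5%) fell by less. As deposited, 740 genes were called in both with the same direction, and 400 of 601 rises and 130 of 139 falls were smaller with 3-MC. The deposited shift of 0.19 in the median gene by itself makes falls smaller and rises larger with 3-MC, and these counts were not corrected for it. Of all genes tested, 48.6% as deposited and 54.5% after quantile normalization had a smaller response of the same direction with 3-MC. The number of calls is no measure of the size of a response here. In fits on only the 6 arrays of each response, the deposited values gave 961 calls without and 2270 with 3-MC, the opposite order to the 1842 (18.1%) and 834 (8.21%) calls of the fit on all 12 arrays.

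Of the 250 genes at an unadjusted p under 0.05 on both scales, 154 (61.6%) had a smaller E2 response of the same direction with 3-MC as deposited, against 48.6% of all genes tested, 5 (2%) had a larger one, against 27.1%, and 91 (36.4%) had responses of opposite direction, against 24.4%. The same arrays chose these genes and give these shares, so the shares describe the 250 genes and are not a test.

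Ctnnd2, which encodes delta-catenin, an adhesion protein of the armadillo family, had the smallest p-value on both scales. Its deposited intensity was 151, 125 and 123 in the vehicle rats, 19.5, 27.1 and 21.1 with E2, 128, 115 and 115 with 3-MC and 64.6, 66.0 and 50.5 with both. All 3 rats given both compounds lay between the E2 rats and the rats without E2, with no overlap. Over all genes tested, the E2+3-MC and E2 rats did not overlap for 22.6% after quantile normalization. Such a separation, here and in the genes below, is to be read against that share. It fell with E2 in both settings, by 1.95 on the log2 scale without 3-MC (limma adjusted p = 6.52e-07) and by 0.83 with 3-MC (limma adjusted p = 0.00639). The interaction was 1.12 ± 0.25 (SE, n = 3 rats per group) as deposited and 0.93 ± 0.16 after quantile normalization, with a limma adjusted p of 0.357 on the latter. Leaving out any 1 rat kept it between 1.04 and 1.22 as deposited. The E2 rats were dim, and the gene's mean log2 level of 6.45 was just above the limit of 6.44 for testing, so the sizes depend on the offset. The interaction was 0.62 at an offset of 64, and at an offset of 1 the gene was below the limit.

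Dnajc14, a J-domain co-chaperone of the endoplasmic reticulum, had the smallest p-value of the genes with a lower value. Its intensity was 217, 169.9 and 181 with vehicle, 313, 339.6 and 292 with E2, 199, 215 and 194 with 3-MC and 138, 158 and 167 with both compounds. The E2 rats were the highest of the 12 and the rats given both were the lowest. It rose by 0.69 with E2 alone (limma adjusted p = 0.0106), whereas the difference in rats given 3-MC was -0.37 (limma adjusted p = 0.255). The interaction was -1.06 ± 0.25 as deposited and -1.19 ± 0.21 after quantile normalization (limma adjusted p = 0.357).

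Since the AhR and ARNT bind the core GCGTG as a pair, the promoters of both genes are shown as 300-base windows, from 250 bases before to 50 bases after the gene start, from RefSeq on assembly GRCr8. Matches to GCGTG on either strand are in capitals.
Ctnnd2, chr2:82879219-82879518, plus strand: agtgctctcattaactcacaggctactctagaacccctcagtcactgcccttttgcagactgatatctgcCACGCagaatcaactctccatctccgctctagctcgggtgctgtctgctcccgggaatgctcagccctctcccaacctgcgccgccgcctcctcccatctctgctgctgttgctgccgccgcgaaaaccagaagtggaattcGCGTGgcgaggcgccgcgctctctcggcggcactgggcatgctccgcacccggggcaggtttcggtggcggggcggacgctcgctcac
Dnajc14, chr7:1819447-1819746, plus strand: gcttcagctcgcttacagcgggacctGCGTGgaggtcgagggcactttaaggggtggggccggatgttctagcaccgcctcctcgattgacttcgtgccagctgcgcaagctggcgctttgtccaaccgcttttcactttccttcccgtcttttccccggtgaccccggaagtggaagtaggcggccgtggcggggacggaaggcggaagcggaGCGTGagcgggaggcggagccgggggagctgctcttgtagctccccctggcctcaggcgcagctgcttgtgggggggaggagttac
Each window holds 2 matches. Of 33469 rat promoter windows of this length, 29.7% hold at least 1, and the mean is 0.461 matches per window. The share with 2 or more was not counted. A match is a description of the letters and not a measured binding site.

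The metallothionein genes Mt1 and Mt2A, whose proteins bind zinc and copper and which are induced by metals and glucocorticoids, differed in the same way. Mt1 had intensities of 7711, 3716 and 5285 with vehicle, 982, 806 and 956 with E2, 3794, 3411 and 4081 with 3-MC and 1481, 2057 and 1371 with both. Mt2A had 8819, 5258 and 7628 with vehicle, 969, 627 and 819.6 with E2, 5569, 5241 and 6378 with 3-MC and 1468, 2980.1 and 1579 with both. Both genes fell with E2 in both settings, and every rat given both compounds was above every E2 rat and below every 3-MC rat. Mt2A fell by 3.13 without and by 1.58 with 3-MC (limma adjusted p = 2.75e-07 and 8.54e-04). The interaction was 1.32 ± 0.34 for Mt1 and 1.56 ± 0.38 for Mt2A as deposited, and 1.03 ± 0.26 and 1.24 ± 0.34 after quantile normalization, with limma adjusted p = 0.841 for both on the latter. Each gene has a second probe set with an interaction of the same sign, 1.33 for Mt1 and 1.90 for Mt2A, and probe sets of such near-identical genes can share signal.

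The promoter windows of both genes are shown, with matches to the cores TGCACNC and TGCGCNC of the metal response element in capitals on either strand.
Mt1, chr19:10832926-10833225, minus strand: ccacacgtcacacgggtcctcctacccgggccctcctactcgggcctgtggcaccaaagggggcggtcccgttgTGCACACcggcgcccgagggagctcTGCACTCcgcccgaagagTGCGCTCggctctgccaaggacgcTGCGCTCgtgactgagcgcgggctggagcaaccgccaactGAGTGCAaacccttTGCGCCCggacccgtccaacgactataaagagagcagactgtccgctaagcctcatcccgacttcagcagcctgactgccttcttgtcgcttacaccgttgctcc
Mt2A, chr19:10838659-10838958, minus strand: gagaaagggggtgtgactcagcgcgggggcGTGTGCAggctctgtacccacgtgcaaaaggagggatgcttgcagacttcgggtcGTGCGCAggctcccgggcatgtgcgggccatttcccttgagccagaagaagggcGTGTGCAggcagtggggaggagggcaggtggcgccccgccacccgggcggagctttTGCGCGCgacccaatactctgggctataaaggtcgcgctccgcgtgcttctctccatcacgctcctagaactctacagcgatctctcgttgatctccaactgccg
The Mt1 window holds 6 matches and the Mt2A window 4, and 0.439% of all windows hold 4 or more. The Mt2A window also holds 4 matches to GCGTG, of which 2 overlap a metal response core, and the Mt1 window holds 0. These matches too describe letters and not measured binding sites. A part of metals in the interaction of these genes was not tested.

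Arg2, a mitochondrial arginase, had intensities of 976, 553 and 522 with vehicle, 147, 76.4 and 97.6 with E2, 591, 443 and 400.1 with 3-MC and 314, 583 and 193 with both. It fell by 2.49 with E2 alone (limma adjusted p = 4.93e-05), and the difference in rats given 3-MC was -0.50 (limma adjusted p = 0.472). The interaction was 2.00 ± 0.47 as deposited and 1.68 ± 0.44 after quantile normalization. Kcne3, a subunit of potassium channels, was lower with E2 alone by 0.79 (limma adjusted p = 0.0215), while all 3 rats given both, at 199, 259 and 201, lay above the 3-MC rats at 193, 143 and 177. Its interaction was 1.12 ± 0.32 as deposited and 0.94 ± 0.22 after quantile normalization.

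The glutathione transferases Gstm1 and Gstm7, enzymes of detoxification, and the matrix protein gene Efemp1 belong to the same group. Gstm1 had 4196, 2244 and 2706 with vehicle, 554, 379 and 378 with E2, 2313, 1929 and 2231 with 3-MC and 822, 1007 and 641 with both, with an interaction of 1.34 ± 0.34. Gstm7 had an interaction of 2.04 ± 0.57 and Efemp1 of 1.52 ± 0.38. After quantile normalization the values were 0.95 ± 0.26, 1.65 ± 0.58 and 1.17 ± 0.25. Gstm1, Gstm7 and Efemp1 were higher in every rat given both compounds than in every E2 rat. These groups did not overlap, in either direction, for 22.6% of all genes tested after quantile normalization. The 3 genes were named for their interaction on the same arrays, so this separation is not separate evidence. Paralogues of the Gstm family can share probes, and their values are uncertain for that reason.

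Inmt, an N-methyltransferase, and the protease gene Prss23 completed this group, with interactions of 1.51 ± 0.43 and 0.96 ± 0.32 as deposited and 1.23 ± 0.32 and 0.68 ± 0.16 after quantile normalization. Postn, the matricellular protein periostin, had 1.12 ± 0.33 and 0.78 ± 0.22. On linear intensities the Postn interaction was 329 as deposited and -80.4 after quantile normalization, a change of sign. Postn and Dnajc14 were the genes called between E2+3-MC and E2 after quantile normalization, out of 2 calls (0.0197%), with differences of 1.36 and -1.09 (limma adjusted p = 0.00741 and 0.0258). Whether 3-MC made a different difference in rats without E2 is what the interaction tests, and neither gene passed it.

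A lower value was found for several genes with a strong rise after E2. Complement C3, a protein of innate defence that estradiol induces in rat uterus, had intensities of 59.5, 33.0 and 36.8 with vehicle, 6741, 5812 and 5448 with E2, 90.6, 89.5 and 175 with 3-MC and 4767, 3979 and 6606 with both. The rats given 3-MC alone lay above the vehicle rats without overlap, while the rats given both overlapped the E2 rats. C3 rose by 6.69 without 3-MC and by 5.28 with it (limma adjusted p = 1.04e-11 and 3.69e-10), with an interaction of -1.41 ± 0.36 as deposited and -1.31 ± 0.36 after quantile normalization. Because the vehicle values are dim, the deposited C3 value depended on the offset, with -1.67 at an offset of 1 and -0.998 at an offset of 64.

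**Figure D3:**
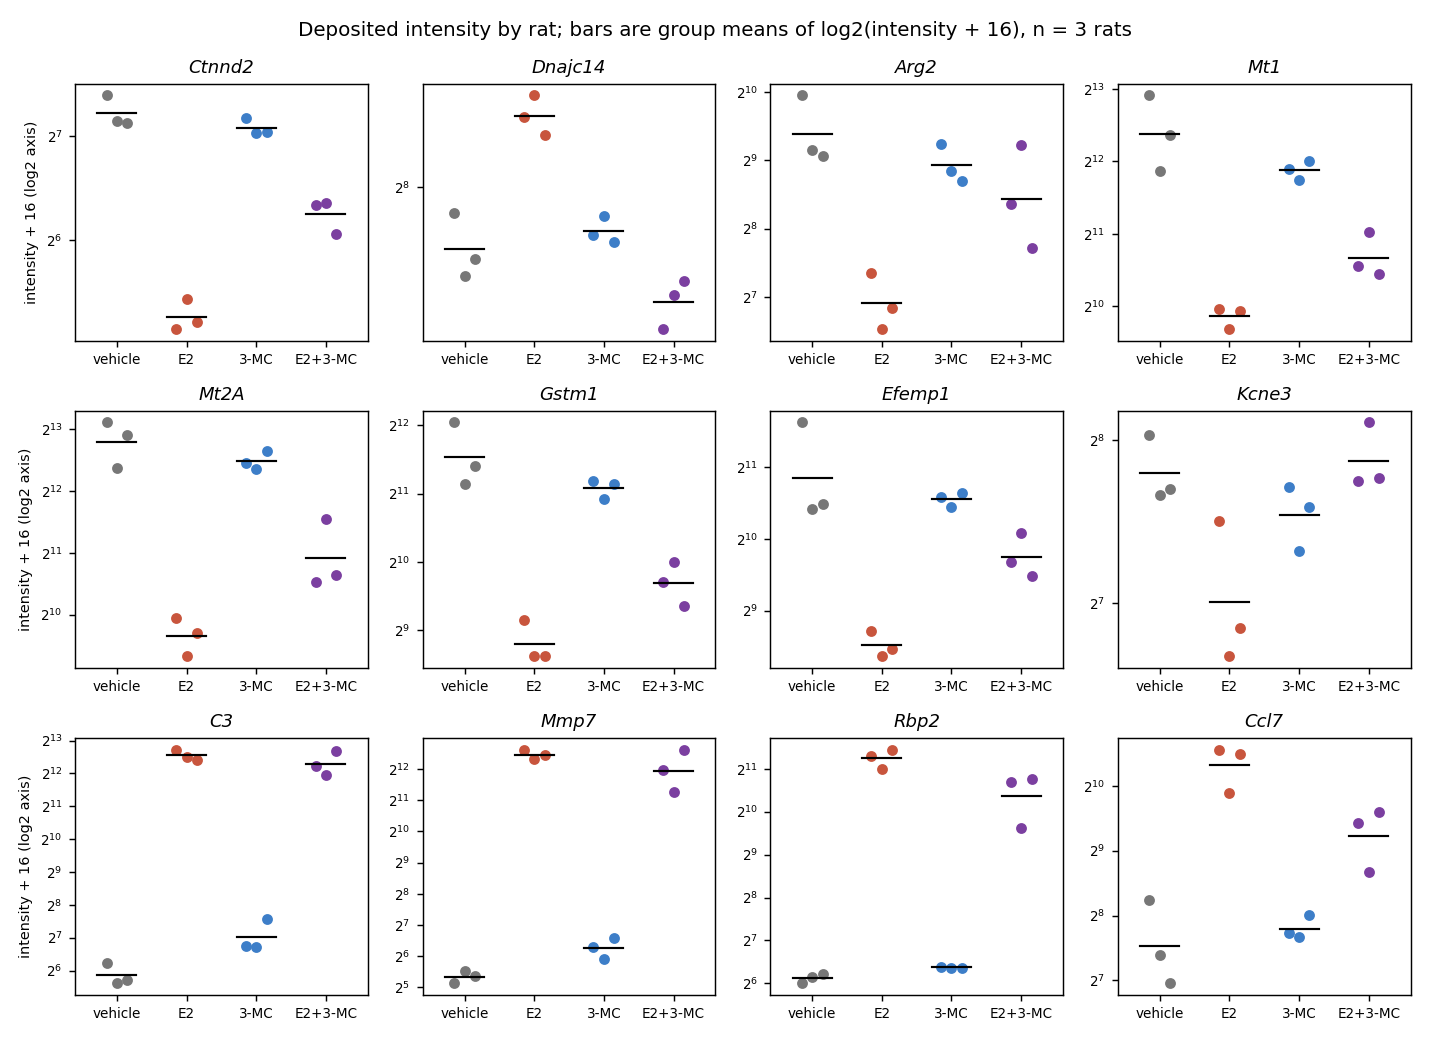
Deposited intensity + 16 on a log2 axis in each of the 12 rats for 12 named genes, with bars at the group means of log2(intensity + 16), n = 3 rats. For Ctnnd2 the E2+3-MC rats (50.5 to 66.0 before the offset) lie between the E2 rats (19.5 to 27.1) and the rest; for C3 the low groups are the vehicle and 3-MC rats.

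Mmp7, a protease that activates epithelial defensins, rose by 7.11 and 5.66, with an interaction of -1.45 ± 0.39 as deposited and -1.30 ± 0.32 after quantile normalization. Its vehicle values were dimmer than those of C3, and the deposited interaction was -1.81 at an offset of 1 and -1.02 at an offset of 64. No detection call was used here, so the rises of Mmp7 and C3 depend on that low level. The vehicle rats were at 19.2, 29.8 and 25.3 and the 3-MC rats at 63.1, 44.6 and 80.9, without overlap, and the rats given both at 3937, 2415 and 6239 overlapped the E2 rats at 6252, 5050.4 and 5544. For Mmp7 as for C3, the 3-MC minus vehicle difference (0.94 for Mmp7, 1.15 for C3) was larger than the E2+3-MC minus E2 difference (-0.52 and -0.26) in size. Cuzd1, a secreted epithelial protein, and S100g, the calcium-binding protein calbindin-D9k, had interactions of -1.12 ± 0.35 and -0.85 ± 0.32, and after quantile normalization of -0.94 ± 0.28 and -0.80 ± 0.28.

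The retinoid genes Rbp2, a retinol-binding protein, and Lrat, which esterifies retinol, differed instead at the E2 end. Rbp2 was at 2496, 2009.7 and 2769.9 with E2 and at 1632, 773 and 1719 with both, without overlap, and at 48.3, 55.4 and 58.8 with vehicle and 67.2, 66.4 and 66.7 with 3-MC. Lrat was at 509, 460.2 and 464 with E2 and at 239, 122 and 383 with both. Their interactions were -1.13 ± 0.35 and -1.27 ± 0.42 as deposited and -0.96 ± 0.27 and -1.23 ± 0.37 after quantile normalization.

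Ccl7, a chemokine that attracts monocytes, was at 285, 153 and 108 with vehicle, 1493, 929.7 and 1432 with E2, 196, 186 and 241 with 3-MC and 672, 392 and 759 with both. The rats given both compounds lay below the E2 rats without overlap. It rose by 2.79 without and by 1.44 with 3-MC (limma adjusted p = 5.18e-06 and 0.00549), with an interaction of -1.35 ± 0.43 as deposited and -1.44 ± 0.30 after quantile normalization. The related chemokines Ccl2 and Ccl11, which draw monocytes and eosinophils, had -1.05 and -0.92 as deposited and -1.25 and -0.87 after quantile normalization. The leukocyte chemokines Ccl5 and Ccl21 had values of the other sign, 1.09 each as deposited. Of the 29 chemokine and cytokine genes tested, 5 had a higher and 4 a lower value at an unadjusted p under 0.05 as deposited. The shares of all genes were 2.61% and 0.325%. After quantile normalization 4 had a higher and 5 a lower value, against 2.99% and 2.58% of all genes. On either scale 0 were called.

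The organic anion carrier Slco4a1, the serine protease Htra4 and the lectin Clec2d, all raised by E2 in both settings, had interactions of -1.15 ± 0.38, -1.22 ± 0.41 and -1.05 ± 0.35 as deposited, and of -1.15, -1.23 and -1.08 after quantile normalization. Adcy1, an adenylyl cyclase, rose by 0.86 without 3-MC (limma adjusted p = 0.00623), and the difference in rats given 3-MC was 0.12 (limma adjusted p = 0.830). The epithelial transcription factor gene Ovol2 and the zinc finger gene Zbed4 were alike, with 0.69 and 0.61 without 3-MC and 0.07 and 0.10 with it. Their interactions after quantile normalization were -0.81 ± 0.17 for Adcy1, -0.76 ± 0.18 for Ovol2 and -0.64 ± 0.13 for Zbed4, with limma adjusted p = 0.704, 0.841 and 0.704.

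The genes best known as AhR targets gave little to compare. Cyp1a1 was dim in all groups, at 29.8, 28.2 and 15.3 with vehicle, 27.3, 20.2 and 32.2 with 3-MC, 16.2, 21.7 and 19.0 with E2 and 19.9, 24.9 and 32.4 with both, and these ranges overlap. Cyp1b1 was dim as well and, like Cyp1a1 and the AhR repressor gene Ahrr, below the limit for testing. Ahrr was at 53.9, 66.4 and 57.8 with vehicle and 31.8, 24.1 and 23.2 with E2, against 64.02, 63.7 and 56.9 with 3-MC and 46.1, 51.2 and 43.6 with both. All 3 rats given both were above all E2 rats, with an interaction of 0.53 ± 0.22 as deposited and 0.43 ± 0.14 after quantile normalization. In the limma fit without the dim filter its adjusted p was 0.965. Nqo1, a quinone reductase, and Ahr itself had 0.09 ± 0.30 and 0.12 ± 0.30 as deposited and -0.07 ± 0.26 and -0.10 ± 0.14 after quantile normalization, a change of sign with the scale. Of 10 tested AhR targets, 0 were called, and their median was 0.19 as deposited, the same as over all genes, and -0.09 without vehicle rat 1. Tiparp had no probe set with 1 symbol and is not analysed here.

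The estrogen receptor gene Esr1 had an interaction of 0.26 ± 0.35 as deposited and 0.03 ± 0.16 after quantile normalization. The progesterone receptor gene Pgr, a standard estrogen target, had 0.03 ± 0.31 and -0.15 ± 0.20, again with a change of sign, and the growth factor gene Igf1 had 0.34 ± 0.45 and 0.19 ± 0.27. Clu, the chaperone clusterin that E2 lowers, fell by 3.41 without 3-MC and fell by 2.72 with it, with an interaction of 0.69 ± 0.33 and 0.30 ± 0.17. A p-value above the threshold does not show that the response of these genes was equal with and without 3-MC, and the standard errors give the size of a difference that could go unseen.

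Genes of mitosis had interactions above 0 in every tested member. The list holds the kinases and motor proteins of cell division, and 16 of its 26 measured genes were bright enough to test; 0 were called, and all 16 had a positive value on both scales, from 0.21 to 1.08 as deposited and from 0.06 to 0.97 after quantile normalization. The median was 0.56 as deposited, against 0.19 for all genes, and 0.45 after quantile normalization, against -0.00. After quantile normalization 5 of the 16 were called as raised by E2 without 3-MC and 13 with it, against 19% and 13.7% of all genes. These are counts of calls and not of genes that rose. The median E2 difference of the list was above 0 in both settings, at 0.51 without 3-MC and 1.08 with it. Nusap1, a spindle protein, was at 59.2, 51.9 and 74.0 with vehicle, 70.6, 59.5 and 56.1 with E2, 75.2, 37.7 and 50.3 with 3-MC and 265, 105 and 76.5 with both. Top2a, the topoisomerase of dividing cells, was at 168, 99.1 and 77.2 with E2 and 434, 214 and 148 with both.

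The mitosis values rest largely on E2+3-MC rat 1. The median over the 16 genes of the level centred on each gene's mean was 1.41, 0.38 and 0.08 in E2+3-MC rats 1 to 3 after quantile normalization, against 0.25, 0.05 and 0.15 in the E2 rats, -0.33, -0.56 and -0.41 in the 3-MC rats and -0.07, -0.45 and -0.39 in the vehicle rats. Rat 1 stood far above the others, and rat 3 was within the range of the E2 rats. Without rat 1 the list median was 0.12 after quantile normalization and 0.22 as deposited. Genes of DNA replication had a median of 0.34 over 21 genes as deposited and 0.16 after quantile normalization, which without E2+3-MC rat 1 were 0.17 and -0.013. They had levels of 0.36, 0.08 and 0.06 in E2+3-MC rats 1 to 3 against 0.05, 0.06 and 0.04 in the E2 rats. Pcna, a clamp of the replication fork, had an interaction of 0.35 ± 0.33 as deposited.

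**Figure D4:**
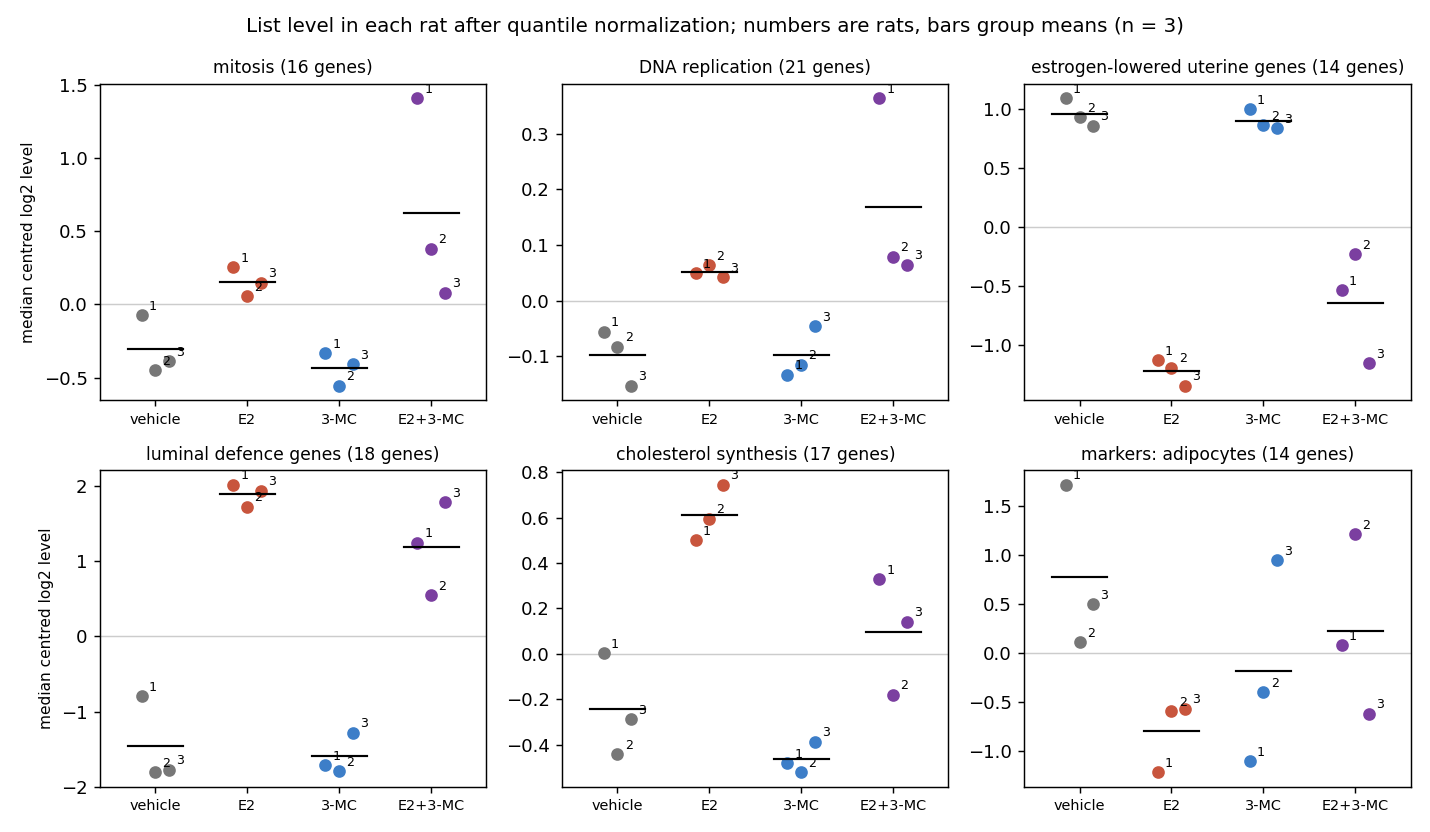
Median over the tested members of the log2 level centred on each gene's mean after quantile normalization, in each of the 12 rats (numbered 1 to 3 within a group), for 6 gene lists, with bars at the group means. In the mitosis panel E2+3-MC rat 1 stands at 1.41, above the other 2 rats of its group at 0.38 and 0.08; in the adipocyte panel vehicle rat 1, 3-MC rat 3 and E2+3-MC rat 2 stand highest in their groups.

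Lists of estradiol-regulated genes were compared next. They include genes chosen with earlier results of E2 against vehicle in view, whose arrays also enter the interaction, so their direction is not independent evidence. The 14 tested genes of the estrogen-lowered list had a median of 0.77 as deposited and 0.46 after quantile normalization, with 12 and 11 above 0. Without vehicle rat 1 the deposited median was 0.43, and without E2+3-MC rat 2 the median after quantile normalization was 0.27. The 30 tested genes of the estrogen-induced list had a median of -0.08 as deposited and -0.24 after quantile normalization, with 11 and 9 above 0. With 1 rat left out their deposited median ran from -0.41 without vehicle rat 1 to 0.14 without vehicle rat 3, and after quantile normalization from -0.43 to -0.094, without vehicle rat 1 and without E2+3-MC rat 2. The 18 luminal defence genes, secreted proteins against microbes, had a median of -0.42 on both scales, with 5 and 3 above 0. After quantile normalization 16 of the 18 were called as raised by E2 in either setting, against 19% and 13.7% of all genes. Without E2+3-MC rat 2 the luminal defence median was -0.041 as deposited and -0.19 after quantile normalization, and without rat 3 it was -0.69 and -0.74. Reg3g, an antibacterial lectin, was at 8948, 8009 and 10807 with E2 and at 3672, 718 and 9726 with both, with an interaction of -2.12 ± 0.85. Slpi, a protease inhibitor, and Lpo, a peroxidase, had -1.04 and -1.09. No member of these lists was called in the interaction.

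Genes of cholesterol synthesis also lay low, with a median of -0.27 over 17 genes as deposited, with 5 above 0, and of -0.40 after quantile normalization, with 4 above 0. After quantile normalization 12 of the 17 were called as raised by E2 without 3-MC and 9 with it, against 19% and 13.7% of all genes. These are counts of calls, and the median E2 difference of the list was 0.87 without 3-MC and 0.56 with it. In the interaction 0 were called. Cyp51, the lanosterol demethylase, was at 1054, 878 and 1203 with E2 and 794, 366 and 774 with both, without overlap. Fdps, which makes farnesyl diphosphate, was at 1439, 1303 and 1606 with E2 and 953, 582 and 1016 with both. Their interactions after quantile normalization were -0.71 ± 0.31 and -0.64 ± 0.23. The list level was 0.33, -0.18 and 0.14 in E2+3-MC rats 1 to 3 against 0.50, 0.59 and 0.74 in the E2 rats. Without E2+3-MC rat 2 the deposited median moved from -0.27 to 0.03, and after quantile normalization from -0.40 to -0.17.

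The 3 highest interactions of the genes tested were those of genes known from fat. Fabp4, a fatty acid carrier of adipocytes, had an interaction of 5.45 ± 1.59, Car3, a carbonic anhydrase, of 5.403 ± 1.63, and Scd, which desaturates fatty acids, of 4.48 ± 1.24. Fabp4 was at 4665, 699.6 and 1289 with vehicle, 30.5, 262 and 177 with E2, 18.5, 370.4 and 2581 with 3-MC and 1087, 3316 and 431 with both. The rats of each group differed by large factors, and the standard errors are wide for that reason. All 14 tested adipocyte markers had a positive value on both scales, with a median of 2.16 as deposited and 1.90 after quantile normalization.

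The amount of fat signal varied from rat to rat. The summed intensity of the 19 measured adipocyte markers was 32307, 5160 and 6582 with vehicle, 3741, 4206 and 3940.4 with E2, 2110.1, 3085 and 11855 with 3-MC and 7103, 14583 and 5639 with both. Vehicle rat 1 was highest of the 12, and the median of the markers without it was 1.42 as deposited and 1.35 after quantile normalization. The part of fat in the interaction of other genes was not tested. Leaving out the 8 genes of the adipocyte list that were among the 250 genes left 242, of which 152 (62.8%) had a smaller response with 3-MC.

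Markers of blood had a median of 0.90 over 5 genes as deposited and 0.66 after quantile normalization. On both scales 4 of the 5 were above 0, and Epb42 went the other way, with -0.54 and -0.67. The beta-globin gene Hbb was at 4479, 2068 and 4751 with vehicle, 1294, 379 and 804 with E2, 1604, 1407 and 1844 with 3-MC and 746, 2381 and 802 with both, with an interaction of 1.73 ± 0.62. Epithelial markers had a median of -0.08 over 29 genes as deposited and -0.20 after quantile normalization, with 10 and 5 above 0. Markers of endometrial stroma, smooth muscle, endothelium and macrophages had deposited medians between 0.07 and 0.37, on both sides of the 0.19 of all genes. In each of the 43 lists 0 members were called on either scale.

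**Figure D5:**
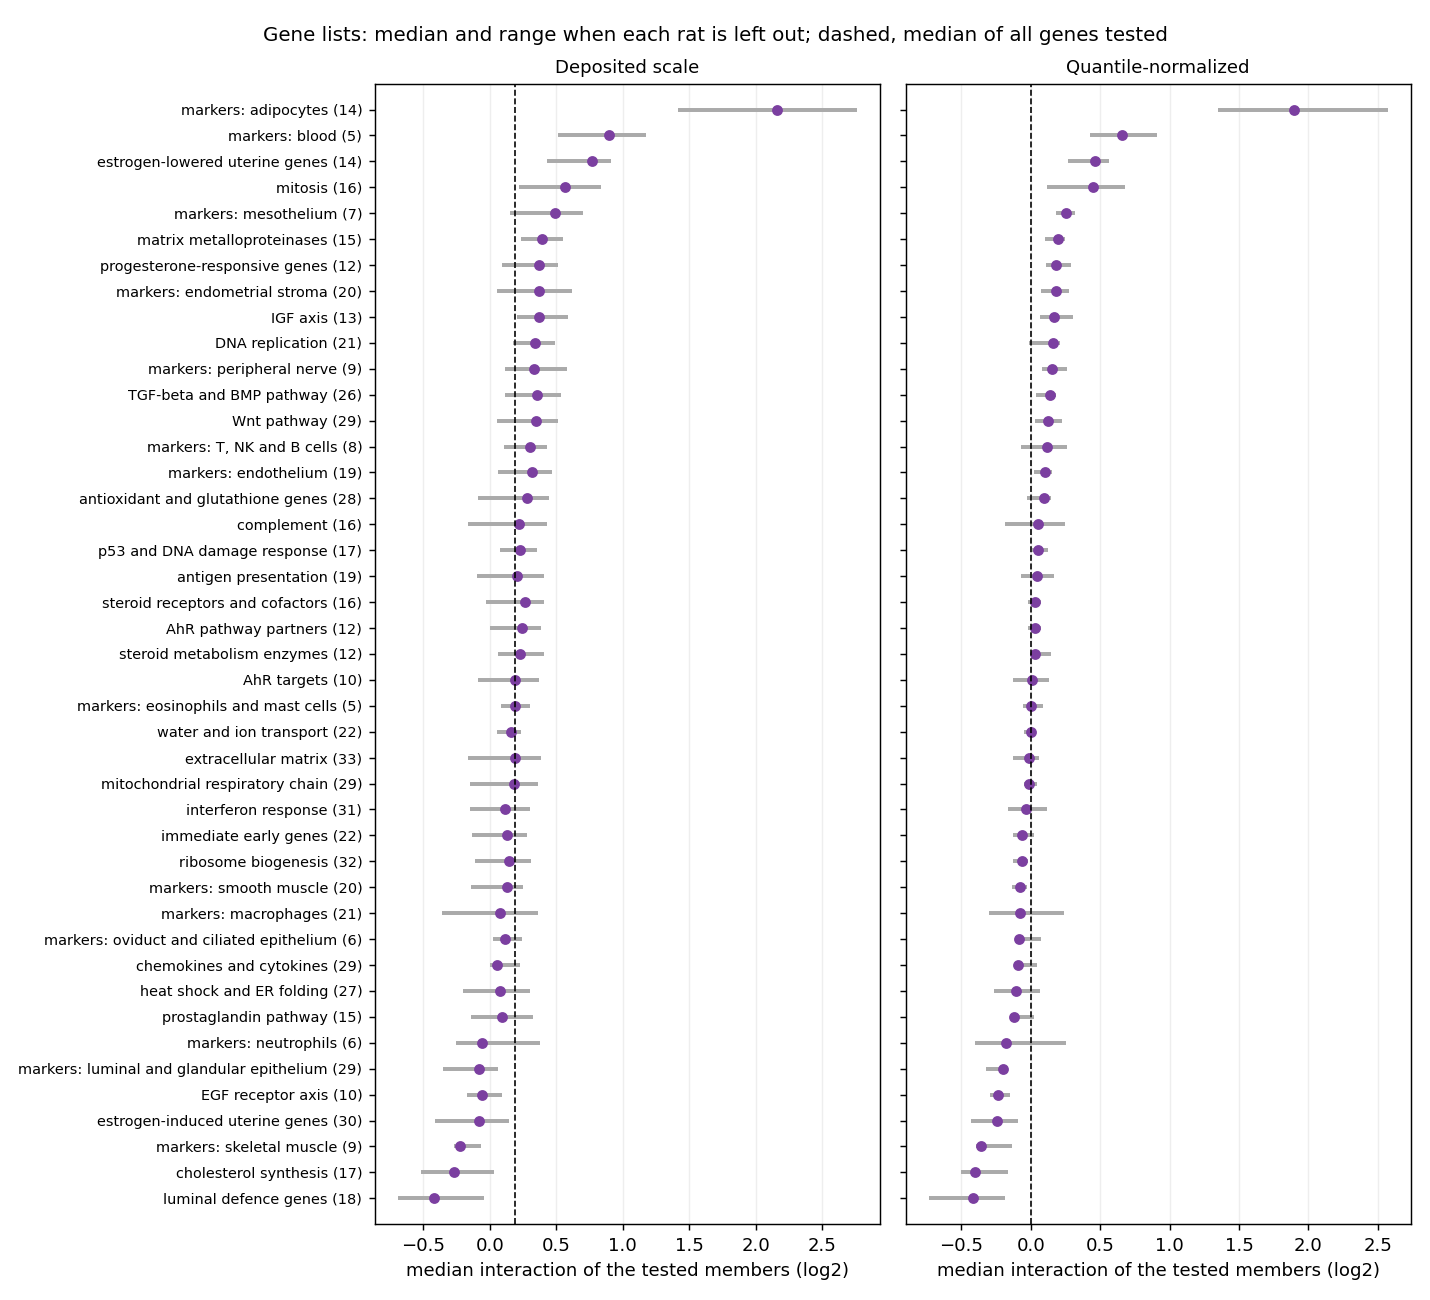
Median interaction (log2) of the tested members of each of 43 gene lists, with the number tested in parentheses, as deposited and after quantile normalization; grey bars span the medians when each of the 12 rats is left out in turn, and the dashed line is the median of all genes tested (0.19 and -0.00). Adipocyte markers lie farthest to the right, at 2.16 and 1.90, and luminal defence genes farthest to the left, at -0.42 on both scales.

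The differences that 3-MC made had a smaller spread over genes than the response to E2. Over the genes tested, the standard deviation of the 3-MC minus vehicle difference was 0.20 as deposited and 0.18 after quantile normalization, that of the E2+3-MC minus E2 difference 0.26 and 0.23, and that of the E2 minus vehicle difference 0.70 and 0.67. limma called 0 genes (0%) between 3-MC and vehicle on either scale, with 82 (0.808%) at an unadjusted p under 0.05 as deposited and 481 (4.74%) after quantile normalization. Between E2+3-MC and E2 it called 0 (0%) as deposited, with 937 (9.23%) unadjusted, against 1317 unadjusted (13%) after quantile normalization. The 2 differences made by 3-MC share no array. Across genes they had a Pearson correlation of 0.147 and a Spearman correlation of 0.290 as deposited, and 0.112 and 0.236 after quantile normalization. Without vehicle rat 1 the deposited Pearson correlation was -0.007. The deposited spread of the 3-MC minus vehicle difference, 0.20, was below the median standard error of 1 such difference, 0.22. The deposited correlations therefore do not measure how much of a 3-MC effect was shared. After quantile normalization the spread, 0.18, was above the median standard error, 0.13, and the part of noise in those correlations was not tested.

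The 3-MC and vehicle rats did not overlap for 813 genes after quantile normalization (8.01%), and the E2+3-MC and E2 rats for 2296 (22.6%). Both held in opposite directions for 37 genes (0.364%), 20 (0.197%) higher with 3-MC in rats without E2 and lower in rats with E2, and 17 (0.167%) the other way round. As deposited the count was 13 (0.128%). 0 genes were in both counts. Those among the named genes with a deposited interaction of at least 1 in size were Ctnnd2, Arg2, Mt1 and Kcne3, opposed after quantile normalization, and Rbp2, opposed as deposited. Groups of a few rats can also separate by random order, and these shares were not compared with that.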

How the data were processed

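RNA of 12 uteri was measured on Affymetrix arrays. Per the submitters' processing notes, the authors used Affymetrix Expression Console and PLIER, a model that combines the probes of a probe set. The deposited values are intensities on a linear scale. Normalization between arrays, annotation build and tool versions were not given in the sources used here. Array medians differed, so the deposited intensities were analysed as they stand and after quantile normalization.

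Probe sets were named from the platform annotation, in which 15310 have 1 gene symbol, 323 several and 13581 none listed. By gene ID, 15279 matched RefSeq on GRCr8. The brightest probe set stood for each of the 527 genes with several. Values became log2(intensity + 16), and the 30% of genes with the lowest mean, under 6.44, were left out. limma 3.58.1 in R 4.3.3 fitted the 4 group means (residual df 8, empirical Bayes), with Benjamini-Hochberg adjustment over the 10154 genes tested. The script was tested on simulated data. The labels name 3 rats in each group, and no batch is given. Rat numbers name different animals and were not used to pair samples.

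The 107 named genes were markers, the 10 smallest p-values in each direction (5 after quantile normalization), and up to 2 tested genes of each list. The list genes were those with the largest deposited interaction in size, whatever their standard error. Other list members given as examples were picked with their values in view. The interaction and the 43 lists (983 genes, 859 measured, 696 tested) were chosen with earlier results of these data known. Alternatives changed the scale, the offset, the dim filter, the variance model, array weights, probe set choice and the replicate block, and left out each rat in turn. The number of arrays limits the precision.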

Additional observations from a re-analysis of the deposited data

Results flagged for a closer look

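For 10 named genes the 3 rats given 3-MC lay on one side of the 3 vehicle rats, and the 3 rats given E2 and 3-MC on the other side of the 3 E2 rats, on the deposited or the quantile-normalized scale, without overlap. The limma interaction test, which tests that difference, did not pass for any of the 10 on either scale. The deposited interactions on the log2 scale were 2.00 for Arg2, 1.32 for Mt1, 1.12 for Ctnnd2, 1.12 for Kcne3, 0.93 for Sult1a1, a sulfotransferase, 0.80 for Tonsl, a DNA repair protein, and 0.75 for Alox15, a lipoxygenase. They were -1.13 for Rbp2, -0.62 for Ovol2 and -0.51 for Zbed4. The pattern appeared as deposited for Rbp2, Sult1a1 and Alox15 and after quantile normalization for the other genes, and it held for 0.128% and 0.364% of all genes tested on those scales. All 10 were named for the size or the p-value of their interaction on the same arrays, so the pattern is not separate evidence. Random order of the rats can also separate 3 from 3, and the shares were not compared with that.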

How the results depend on the processing

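Of the 104 tested named genes, 85 kept the sign of the interaction under each alternative run for them (all 12 for 77 genes, 10 or 11 for the rest) and with each of the 12 rats left out, and 19 did not. The 3 dim genes Cyp1a1, Cyp1b1 and Ahrr were fitted under 1 alternative, without the dim filter, with limma adjusted p = 0.968, 0.994 and 0.965. Apart from the markers, the named genes were chosen for the p-value or the size of their interaction on the same arrays. A kept sign is therefore not separate evidence, and the share of all genes tested that kept their sign was not counted. The cause of the changes of sign was not tested, except that centring removes the shift of array medians by its construction. The number of genes called was 0 under each alternative other than array weights. As deposited these gave 256 by REML without convergence and 1119 gene by gene, and after quantile normalization 3 by REML and 0 gene by gene. Leaving out 1 rat gave 0 to 2 calls. Unadjusted counts were 304 under median centring (144 higher, 160 lower), 336 and 236 with offsets of 1 and 64, 513 of 14506 without the dim filter and 172 of 7253 with the lowest 50% of genes left out. With 1 rat left out they ran from 137 to 777 as deposited and from 354 to 1060 after quantile normalization.

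Under quantile normalization the sign turned for Nqo1 (-0.069), Ahr (-0.099) and Pgr (-0.15), and under median centring likewise (-0.074, -0.051 and -0.13). A replicate block by rat number gave 0 calls and 511 genes at an unadjusted p under 0.05 as deposited, and 0 calls and 574 genes after quantile normalization, where it left Nqo1 at -0.069, Ahr at -0.099 and Pgr at -0.15. As deposited, the deviations of samples with the same number had a median correlation of 0.086, with 8 of 18 pairs over 0.1, against -0.051 and 9 of 36 for different numbers. Not every pair was over 0.1, and the numbers were not taken to pair the samples. A modest block would also leave some pairs below 0.1, so these correlations do not settle whether the numbers mark one.

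REML weights turned Ahr (-0.20), Pgr (-0.12), Esr1 (-0.0544), RT1-Bb (-0.18), RT1-Ba (-0.55), C1qc (-0.29), Pmp22 (-0.012), Lmod1 (-0.022), Ppp1r14a (-0.059), Cxcl6 (0.0075), Dusp1 (-0.043), Uqcrc2 (-0.072), Uqcrc1 (-0.099), Phlda3 (-0.0202) and Ihh (-0.096). Gene-by-gene weights turned Ahr (-0.12), Pgr (-0.067), Igf1 (-0.17), Esr1 (-0.0541), RT1-Bb (-0.32), RT1-Ba (-0.32), C1qc (-0.37), Lmod1 (-0.025), Ppp1r14a (-0.17), Cfd (-0.034), Dusp1 (-0.28), Cxcl9 (-0.28), Uqcrc1 (-0.065) and Phlda3 (-0.12).

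With 1 rat left out, Nqo1 ran from -0.10 to 0.26, Ahr from -0.097 to 0.24, Pgr from -0.15 to 0.21, Igf1 from -0.15 to 0.66, Esr1 from -0.055 to 0.42, C1qc from -0.078 to 0.99, Lmod1 from -0.064 to 0.41, Ppp1r14a from -0.21 to 0.46 and Uqcrc1 from -0.098 to 0.68. The lowest value came without vehicle rat 1 for each of these other than Pgr, where it came without E2+3-MC rat 3.

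The correlation of the differences made by 3-MC was 0.0815 with the lowest 50% of genes left out and ran from -0.0068 to 0.188 with 1 rat left out. Under quantile normalization and median centring, list medians moved to -0.23 and -0.22 for the EGF receptor axis, -3.3e-05 and -0.0077 for water and ion transport, 0.0038 and 0.025 for eosinophils and mast cells, -0.36 and -0.39 for skeletal muscle and -0.083 and -0.054 for oviduct and ciliated epithelium, and under median centring to -0.11 for chemokines and cytokines.

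With 1 rat left out, list medians ran from -0.0904 to 0.37 for AhR targets, 0.089 to 0.51 for progesterone-responsive genes, -0.14 to 0.32 for the prostaglandin pathway, 0.051 to 0.51 for the Wnt pathway, 0.0021 to 0.23 for chemokines and cytokines, -0.14 to 0.28 for immediate early genes, -0.0904 to 0.45 for antioxidant and glutathione genes and -0.15 to 0.36 for the respiratory chain. Among cell types they ran from -0.14 to 0.25 for smooth muscle, 0.063 to 0.47 for endothelium, 0.11 to 0.43 for T, NK and B cells, -0.25 to 0.38 for neutrophils, 0.51 to 1.18 for blood, -0.27 to -0.066 for skeletal muscle, 0.022 to 0.24 for oviduct and ciliated epithelium and 0.11 to 0.58 for peripheral nerve.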

Other observations

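Counts above 0 in other gene lists are to be read against 79.9% of all genes tested as deposited and 49.9% after quantile normalization. The insulin-like growth factor axis, growth factors and binding proteins that act in uterine growth, had a median of 0.37 over 13 genes as deposited and 0.17 after quantile normalization, with 12 above 0 on both scales and 0 called. Genes of the transforming growth factor-beta and BMP pathway had 0.35 over 26 genes and 0.14, with 23 and 19 above 0, and genes of the Wnt pathway had 0.34 over 29 genes and 0.12, with 26 and 19 above 0. Matrix metalloproteinases had 0.40 over 15 genes and 0.20, and mesothelial markers had 0.49 over 7 genes and 0.25. Without vehicle rat 1 the deposited medians were 0.21 for the insulin-like growth factor axis, 0.11 for the transforming growth factor-beta and BMP pathway, 0.051 for the Wnt pathway, 0.23 for matrix metalloproteinases and 0.15 for mesothelial markers. The medians of the respiratory chain and the extracellular matrix, at 0.18 and 0.19 as deposited and -0.01 for both after quantile normalization, were close to those of all genes, 0.19 and -0.00.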
